A study of Homo sapiens with 41 samples.

Results

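The peaks described here are the 2338 places in the genome where a mouse antibody against Elongin A gave more CUT&RUN signal than mouse IgG in DLD1 cells, a human colon cancer line. All peaks of that list were taken, with no selection. They make up 2338 of the 11244 peaks in the 3 lists of Elongin A occupancy, beside 8720 from a goat antibody in CUT&RUN and 186 from ChIP-seq. The mouse antibody list came from 1 library, called against 1 mouse IgG library. The goat antibody list pooled 2 libraries and was called against 1 goat IgG library. All these cells were wild type, had received no siRNA and were fixed with formaldehyde. Because the mouse antibody list has no replicate, no spread between replicates can be given. The intervals below are 95% intervals for counting error alone, and the control libraries differ between the 2 CUT&RUN lists.

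Elongin A is the large subunit of Elongin, which also contains Elongin B and Elongin C and was first purified as a factor that speeds RNA polymerase II (RNAPII) along the template in vitro. With a cullin it also forms a ubiquitin ligase that acts on stalled RNAPII. In CUT&RUN an antibody bound to chromatin tethers a nuclease, which releases short DNA fragments around the bound protein for sequencing. A peak is therefore a place where fragments accumulate beyond what the control predicts, and it shows occupancy near that place, not expression of the gene.

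The sequences at 6 summits show the kinds of place the mouse antibody picked out. The summit is the base under the highest pile-up of tags, and each stretch gives 50 bases of the GRCh37 (hg19) plus strand on either side of it. Capitals mark the 32 bases around the summit whose exact copies in the genome were counted. The first stretch lies upstream of EGR1, at chr5:137800916-137801016. The next 2 lie past the ends of the small nuclear RNA genes RNU4-2 (chr12:120729286-120729386) and RNU5B-1 (chr15:65597261-65597361). YIF1A is the promoter peak with the highest enrichment among those with no goat antibody peak (chr11:66056885-66056985). The last pair are intergenic and also had no goat antibody peak, at chr1:113896544-113896644 and chr10:98561353-98561453.
EGR1 promoter: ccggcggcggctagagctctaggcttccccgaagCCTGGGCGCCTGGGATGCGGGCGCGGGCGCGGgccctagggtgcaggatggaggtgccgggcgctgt
RNU4-2, past the gene end: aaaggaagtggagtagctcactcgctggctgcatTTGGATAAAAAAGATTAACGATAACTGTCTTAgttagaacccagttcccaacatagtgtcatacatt
RNU5B-1, past the gene end: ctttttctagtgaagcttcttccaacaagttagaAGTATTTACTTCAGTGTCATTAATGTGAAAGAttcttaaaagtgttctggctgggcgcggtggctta
YIF1A promoter: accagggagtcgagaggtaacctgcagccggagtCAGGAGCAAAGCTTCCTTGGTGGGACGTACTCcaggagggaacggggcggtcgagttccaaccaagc
chromosome 1, intergenic: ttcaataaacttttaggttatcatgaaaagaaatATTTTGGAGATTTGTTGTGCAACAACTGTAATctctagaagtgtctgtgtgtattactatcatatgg
chromosome 10, intergenic: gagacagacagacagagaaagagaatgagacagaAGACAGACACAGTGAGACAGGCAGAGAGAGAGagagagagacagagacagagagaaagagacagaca

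These summits differed widely in composition. The EGR1 stretch was 76.2% G and C, the YIF1A stretch was 61.4% and held the letters GGGCGG, and the chromosome 1 stretch was 29.7%. The chromosome 10 stretch is a run of short GA-rich repeats, and its capital letters occur 4 times in the genome. The other 5 summits shown are single-copy by this count.

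Signal at the peaks was low in absolute terms. The 2338 peaks covered 786896 bp, at widths of 209 to 4536 bp (median 295 bp). Fold enrichment ranged from 1.36 to 12.1 (median 4.36). It is the summit pile-up over the background that the peak caller expected there, after a small constant was added to both. It is therefore lower than the plain ratio of tags to background, most of all where the background is low. From the deposited fold and p-value of each peak, the number of tags (sequenced fragments as the caller counted them) piled up at the summit could be recovered for all 2338 peaks. The median summit held 14 tags and the extremes were 5 and 782. The middle 50.0% of peaks lay between 10.0 and 18.0 tags. The expected background had a median of 2.40 tags. In the goat antibody list the median summit held 22 tags over a background of 3.37. The caller scaled the goat antibody tags by 0.859 before computing fold. Goat antibody tags are given here before that scaling and the background after it, so the 2 are not on the same scale. Fewer than 10 tags lay at the summit of 492 mouse antibody peaks (21.0%), against 15 goat antibody peaks (0.172%). By the scaling between libraries, mouse IgG held 3.74 times as many tags as the antibody library and was scaled down to it by the caller. A summit of 14 tags has a Poisson interval of 7.65 to 23.5, so single peaks are ranked only loosely.

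Peak centres were enriched in promoters. A promoter was the sequence from 1000 bp before to 100 bp after a transcription start site (TSS), and 645 centres lay in one. This was 27.6% (25.8 to 29.4) of the list, against 4.56% of the ungapped genome, a 6.05-fold excess. Windows at the transcription termination site (TTS), from 100 bp before to 1000 bp after a gene end, held 156 centres. They made up 6.67% (5.73 to 7.76) of peaks and 4.57% of the genome, an excess of 1.46-fold. The gene body class, what remains inside genes, was the commonest with 1053 centres, yet its 45.0% (43.0 to 47.1) was below the 55.1% of genome sequence in that class. A further 484 centres (20.7%) were intergenic, where 35.8% of the genome lies. Within the gene body class, 102 of 1053 centres (9.69%, 8.04 to 11.6) fell in exons, compared with 5.49% of the sequence of that class.

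The goat antibody list divided in much the same way. Its promoter share was 24.9%, lower than that of the mouse antibody list by 2.67 percentage points (interval 0.670 to 4.72). This difference turned to -0.342 points (-2.91 to 2.22) when the goat antibody list was limited to as many peaks by q-value. The gene body share of the mouse antibody list differed from that of the goat antibody list by -4.48 points (-6.74 to -2.2). Against as many goat antibody peaks that difference was -1.2 points, with an interval from -4.05 to 1.66 that includes 0. The intergenic share was higher by 2.64 points (0.847 to 4.51), and by 3.25 points (0.998 to 5.5) against as many goat antibody peaks. TTS shares differed by -0.828 points, with an interval from -1.93 to 0.381 that includes 0. The TTS difference was -1.71 points (-3.23 to -0.197) against as many goat antibody peaks and -1.59 points (-2.5 to -0.567) with coding genes alone, so the TTS share of the mouse antibody list was the lower one under those choices.

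**Figure D1:**
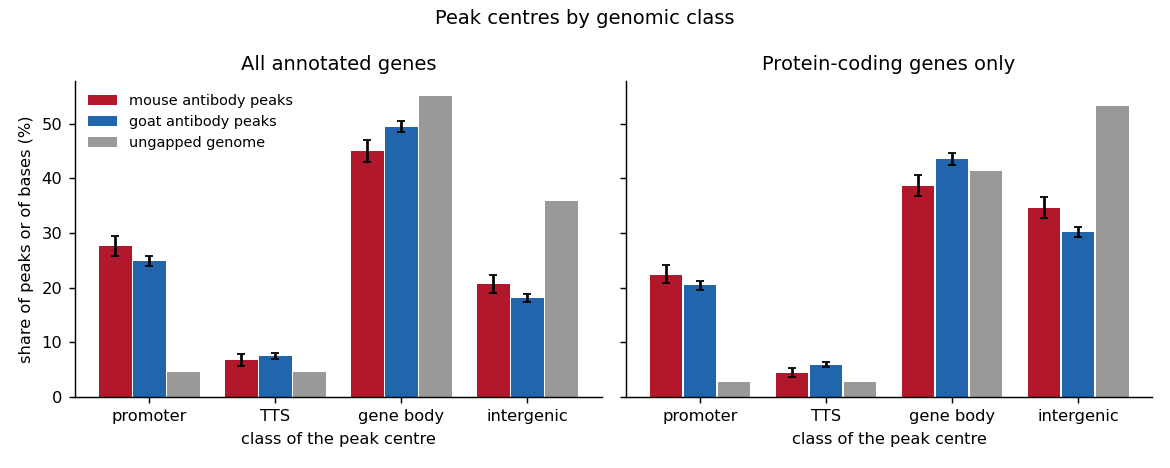
Share of peak centres or of bases (percent, vertical axis) in each class for the mouse antibody list (2338 peaks), the goat antibody list (8720 peaks) and the ungapped genome, with genes of every type on the left and protein-coding genes alone on the right; error bars are 95% Wilson intervals for counting error. With all genes, promoters hold 27.6% of mouse antibody peaks and 4.56% of the genome, and with coding genes alone they hold 22.4% and 2.72%.

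Density differed between chromosomes. Chromosome 19 carried 2.1 mouse antibody peaks per ungapped Mb, chromosome 17 carried 1.99 and chromosome 22 carried 1.95. Chromosome X had the fewest of the chromosomes from 1 to 22 and X, at 0.172 per Mb. The goat antibody list also had its highest values on these 3 autosomes, at 6.40, 6.20 and 4.61 per Mb, and its lowest on X, at 0.675.

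Around the start sites of protein-coding genes the fullest 100 bp bins lay just downstream of the TSS. From 0 to 100 bp downstream there were 85 summits, and from 100 to 200 bp there were 90. The bin just upstream of the TSS held 44, and counts were higher again further upstream, reaching 75 from 200 to 300 bp. With genes of every type the first bin downstream was the fullest, with 116. Within 500 bp, 285 of 542 summits were upstream (52.6%, 48.4 to 56.8). Within 200 bp only 97 of 273 were upstream (35.5%, 30.1 to 41.4). With genes of every type the upstream share within 500 bp was 47.5% (43.8 to 51.3), 318 of 669 summits. The balance between the sides thus depended on the window and on the annotation. The goat antibody list gave 53.8% upstream within 500 bp of coding starts, and the difference of -1.22 points had an interval of -6.02 to 3.56.

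At the other end of coding genes, summits lay more often past the end than before it. Of the 172 summits within 2000 bp of the nearest annotated end, 108 were downstream (62.8%, 55.4 to 69.7). Within 5000 bp the share was lower, with 200 of 357 downstream (56.0%, 50.8 to 61.1). The 500 bp bins next to the end were nearly even, with 29 summits before it and 27 past it. The bin from 500 to 1000 bp past the end held 34 summits, the most of the bins on either side within 5000 bp. In the goat antibody list 58.7% of summits within 2000 bp were past the end, and the difference of 4.06 points had an interval of -4.13 to 11.8.

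**Figure D2:**
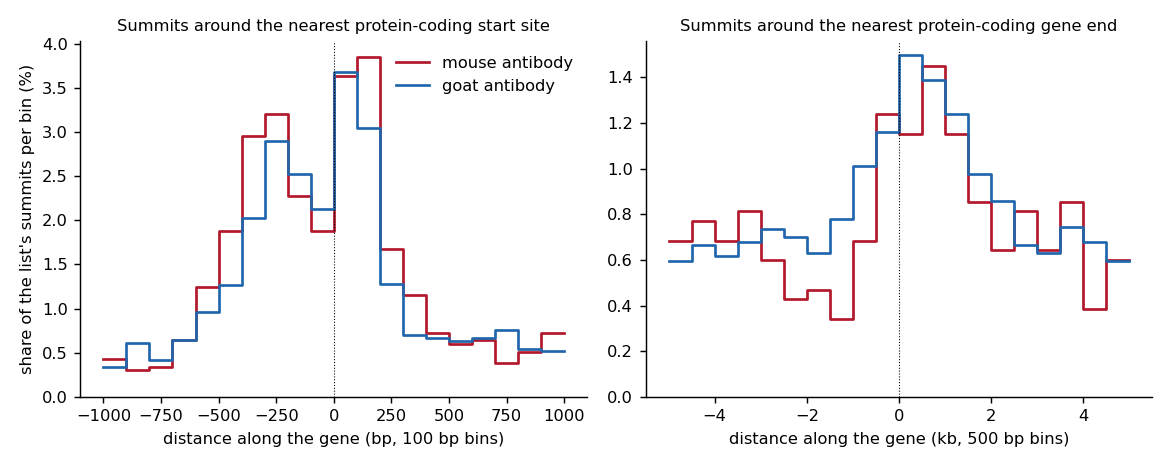
Share of each list's summits (percent, vertical axis) by distance from the nearest protein-coding TSS in 100 bp bins (left, bp) and from the nearest coding gene end in 500 bp bins (right, kb), for the mouse and goat antibody lists, with positive distances downstream. The 2 fullest bins for the mouse antibody lie just downstream of the TSS, with 85 and 90 summits, the fullest upstream bin holds 75, and the bin 500 to 1000 bp past gene ends holds 34.

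Through these windows the list occupied 1552 of 20136 protein-coding genes, or 7.71%. It occupied 564 of 18678 long noncoding RNA genes (3.02%) and 41 of 3541 small RNA genes (1.16%). Over every gene type this came to 2238 genes. Most were met by a single peak centre (1958 genes), 225 by 2 and 55 by 3 or more. Coding genes met in the gene body had a median length of 73.9 kb, against 18.6 kb for those met at the TTS, 21.8 kb for those met at the promoter only and 25.8 kb for those with no peak. A longer gene offers more sequence for a centre to fall in, and gene length was not adjusted for. Of the 1552 coding genes, 941 (60.6%) were also occupied in the goat antibody list, where they made up 21.8% of 4309. The goat antibody list occupied 21.4% of all coding genes.

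The genes holding most centres were not the ones with the highest folds. HOXB3, a homeobox gene of the HOXB cluster, and the antisense transcript HOXB-AS3 that overlaps it shared the same stretch of chromosome 17 and held 7 each. The 7 peaks within HOXB3 ranged from 3.27-fold to 5.97-fold, with 11 to 18 tags at the summit, and all 7 overlapped goat antibody peaks. LINC-PINT, a long noncoding RNA gene, also held 7, and PDE4D, which encodes a cAMP phosphodiesterase, held 5. A group of genes held 4 each. Among them were FAT1, an atypical cadherin, the snoRNA host GAS5, the ribosomal protein gene RPL27A, and the WNT pathway ligase gene RNF43. MALAT1, the transcription factor genes RUNX1 and RUNX2 and the long noncoding RNA gene LINC00910 also held 4.

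Small nuclear RNA (snRNA) genes gave the most regular pattern. These short, intronless genes encode the RNA parts of the spliceosome and are transcribed by RNAPII, apart from U6, which RNA polymerase III transcribes. Of the 8 U2, U4 and U5 genes in the annotation list, all 8 were occupied, against the 1.16% of small RNA genes in general. Of 24 U1 genes and U1 variants, 5 were occupied, namely RNU1-1, RNU1-2, RNVU1-6, RNVU1-14 and RNVU1-18. None of the 5 U6 genes, 3 minor spliceosome or U7 genes and 7 RNA polymerase III genes (such as RN7SK) held a centre. With so few genes, a count of 0 allows a share of up to 35.4% even in the longest of these 3 lists. SNORD118, the U8 RNA gene, which has a promoter of its own, was occupied as well.

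At these 14 occupied genes the summits lay beside the gene and not on it. Of 23 mouse antibody peaks, 16 had their summit past the gene end, by 181 to 1182 bp with a median of 316 bp. The other 7 had it 352 to 834 bp before the gene start. No summit lay inside a gene, and each of the 14 genes had at least 1 summit past its end. SNORD3B-2, a snoRNA gene outside this set of 14, differed in that its peak centre lay in the gene body (7.65-fold, 23 tags). RNU5E-1 had 45 tags over a background of 3.97 (9.25-fold) with its summit 207 bp past the end. RNU2-2P had 37 tags over 3.36 (8.72-fold), 372 bp past. SNORD118 had 33 over 3.21 (8.08-fold), 268 bp past. The sequences of the RNU4-2 and RNU5B-1 summits printed above are of this kind, at 230 and 181 bp past the end. The weakest peak past an end was at RNU5F-1, with 14 tags over 3.47 (3.35-fold).

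The 14 genes together span 2012 bp, of which mouse antibody peaks covered 218 bp (10.8%), and 11 genes were not touched. Goat antibody peaks covered 57.0% of the same bases and ChIP-seq peaks 89.2%. Goat antibody summits near these genes also lay outside them, 13 past the end at a median of 243 bp and 5 before the start. ChIP-seq summits were nearer, with 14 past the end at a median of 76.5 bp and 1 inside. snRNA genes have many near-copies, and 53.1% of 32 bp windows inside the 14 genes were single-copy, against 77.8% in the 600 bp past their ends. In RNVU1-14, RNVU1-6 and SNORD118, the 3 genes where at least 90% of windows were single-copy, mouse antibody peaks covered 14 of 462 bp (3.03%). Goat antibody peaks covered 36.8% of those bases and ChIP-seq peaks 89.8%. How multiply aligned reads were handled in this library is not given in the sources used here.

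**Figure D3:**
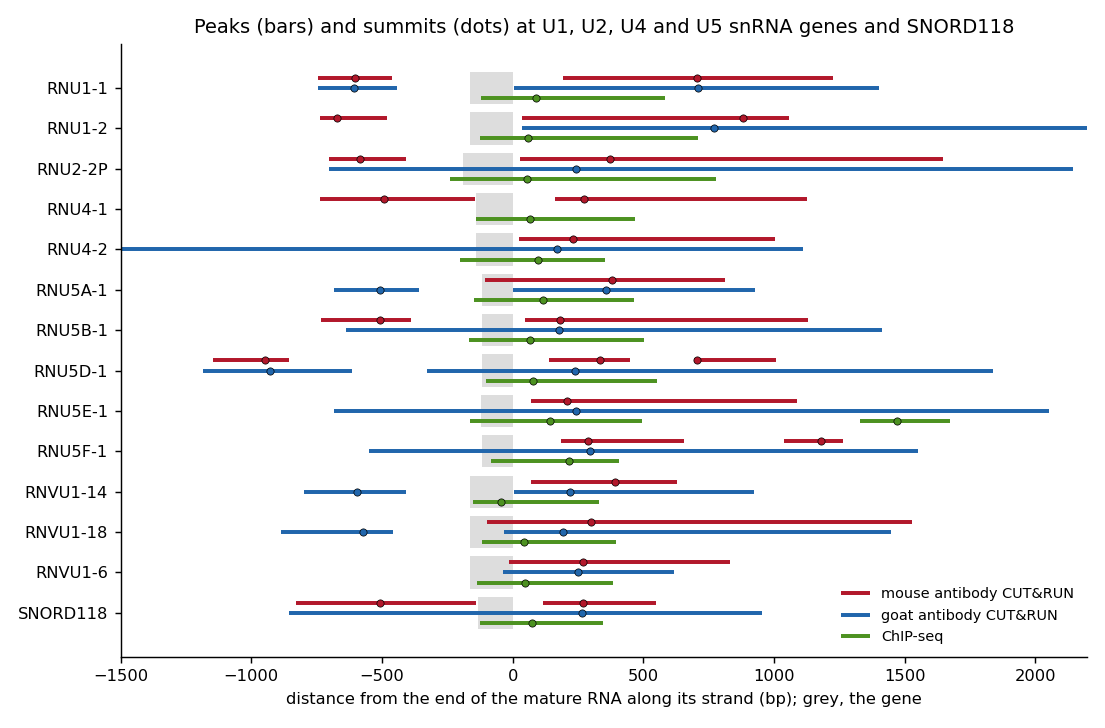
Peaks (bars) and summits (points) around 14 snRNA and U8 genes, by distance in bp from the gene end in the direction of transcription (horizontal axis), for the mouse antibody, goat antibody and ChIP-seq lists; each peak is drawn once, at the gene whose end is nearest its summit, grey marks the gene, and bars longer than the axis are cut off at its edge. All 23 mouse antibody summits lie outside the genes, 16 past the end and 7 before the start, while ChIP-seq peaks cover 89.2% of gene bases.

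The 10 peaks with the highest fold were led by this class. The first, at chr1:16841077-16841361, had 24 tags over 1.07 (12.1-fold), with its summit 440 bp before the start of RNU1-1 in sequence that occurs 4 times in the genome. The second, at chr17:19014643-19015494 (11.2-fold, 34 tags), lay in the TTS window of an unnamed gene. The next lay past the U1 pseudogene RNU1-60P inside TEX14 (10.9-fold, 30 tags). RNU5E-1 and RNVU1-14 (9.19-fold, 18 tags) were also among the 10. Promoters gave YIF1A, which encodes a membrane protein of the secretory pathway (9.19-fold, 18 tags), and CDC27, which encodes a subunit of the anaphase-promoting complex (9.06-fold, 25 tags). The remaining 3 were intergenic, at 10.2-fold (64 tags, chromosome 10), 9.53-fold (16 tags, chromosome 1) and 8.77-fold (57 tags, chromosome 16). Goat antibody peaks overlapped 5 of these 10, and the YIF1A, CDC27 and 3 intergenic peaks had none.

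Ranking by q-value picked out other places, since a high background with many tags can pass it at a low fold. The highest −log10 q-value, 131, belonged to a peak in HFM1, a DNA helicase gene of meiosis, on chromosome 1. It had 506 tags over an expected 129 (3.90-fold), and its summit sequence occurs 3 times in the genome. This summit lay 17369 bp from the nearest TSS. The sixth, chr1:121484737-121485367, had 782 tags over 476 (1.64-fold). It was intergenic, with no gene within 1 kb, and its summit sequence occurs 2 times in the genome. EGR1, an immediate early transcription factor gene, ranked eighth with 60 tags over 6.41 (8.23-fold), 202 bp upstream of its TSS. The goat antibody summit there was 3 bp away, with 145 tags at 10.5-fold.

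Peaks of at least 1 kb numbered 17 (0.727%), against 393 in the goat antibody list (4.51%). Of the 17, 11 were centred in a TTS window, 4 in a promoter and 2 in a gene body, and all 17 overlapped a goat antibody peak. The widest, 4536 bp, covered SNHG3, a snoRNA host gene at the start of RCC1 (26 tags, 4.87-fold). The next, of 4056 bp, lay over EEF1A1, which encodes translation elongation factor 1 alpha (33 tags, 6.79-fold). Others lay over DDX5, an RNA helicase gene (2577 bp), EIF4A2, a translation initiation helicase gene (2256 bp), and SNHG1 (1609 bp). RNVU1-18, RNU2-2P and RNU5B-1 carried further ones.

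Among genes of protein synthesis, cytosolic ribosomal protein and translation factor genes were occupied more often than coding genes at large. Cytosolic ribosomal protein genes had a centre in 16 of 83 (19.3%, 12.2 to 29), beside 7.71% of all coding genes. All 16 also had one in the goat antibody list, where 64 of 83 were occupied. The strongest were RPL10A (7.74-fold, 15 tags) and RPS19 (7.61-fold, 11 tags), followed by RPL3 and RPL21 at 5.27-fold each. The RPL21 summit sequence occurs 20 times in the genome. RPL10A was met through a promoter peak that did not overlap a goat antibody peak. Counting only peaks with a fold of at least 5, the share for this list was 7.23%, beside 2.33% of all coding genes. Translation factor genes, chosen by the symbols EIF and EEF, gave 14 of 71 (19.7%, 12.1 to 30.4). Chosen by symbol alone, the list is wider than its name, and the 14 include the kinase gene EIF2AK3 and the methyltransferase gene EEF1AKMT3. Leading were EEF1A1, EIF3M (6.33-fold, 11 tags), EEF2 (5.98-fold, 10 tags) and EIF4E2 (5.42-fold, 16 tags). Mitochondrial ribosomal protein genes gave 5 of 78 (6.41%), led by MRPS34 (6.37-fold, 10 tags), and aminoacyl-tRNA synthetase genes 2 of 20 (YARS1 and EPRS1). Noncoding snoRNA hosts, whose introns carry guides for ribosomal RNA modification, gave 7 of 29 (24.1%), beside 3.02% of long noncoding RNA genes. SNHG12 (6.61-fold, 13 tags), SNHG1 (6.09-fold, 23 tags), GAS5 (5.03-fold, 15 tags) and SNHG3 led them. All 7 were occupied in the goat antibody list too, which held 16 of the 29 (55.2%), beside 8.27% of long noncoding RNA genes. Box C/D snoRNA genes gave 9 of 268 (3.36%) and H/ACA snoRNA genes 5 of 111 (4.50%), beside 1.16% of small RNA genes in general. These counts are not separate from those of host genes. SNORD102 shares a peak with RPL21, SNORD72 with RPL37 and SNORD99 with SNHG12. SNORA4 and SNORA63 also rest on a common peak, as do SNORD12 and SNORD12B. Small Cajal body RNA genes gave 0 of 20, which allows up to 16.1%.

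Histone and splicing genes followed. The replication-dependent histone genes, which are short and lack introns, gave 15 of 64 (23.4%, 14.7 to 35.1). Histone genes stand close together, and 10 of the 15 rest on 5 peaks that each serve a pair of genes, such as the peak shared by H3C1 and H4C1 (21 tags, 4.42-fold). H3C6 (5.58-fold, 28 tags) and H3C7 (5.15-fold, 18 tags) were higher. The hnRNP genes, which encode RNA-binding proteins of pre-mRNA, gave 6 of 25, counting a readthrough gene that shares the HNRNPUL2 peak. HNRNPM (6.55-fold, 18 tags), HNRNPA2B1 (6.25-fold, 37 tags) and HNRNPUL2 (5.50-fold, 28 tags) were strongest. Of 12 SR splicing factor genes only SRSF6 (7.21-fold, 26 tags) and SRSF3 (4.68-fold, 11 tags) were occupied.

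In the transcription machinery, elongation factors and Elongin partners gave 6 of 27 (22.2%, 10.6 to 40.8), beside 7.71% of all coding genes. CCNT1, a cyclin of P-TEFb, had 20 tags (5.37-fold), and AFF1, a scaffold of the super elongation complex, had 15 (5.10-fold). The Paf1 complex genes CDC73 (12 tags, 4.53-fold) and PAF1 (9 tags, 4.28-fold) had lower folds. RTF1 (21 tags, 3.47-fold) and SUPT4H1 (13 tags, 3.55-fold) had the lowest folds of the 6, though RTF1 held the most tags. The goat antibody list also occupied 6 of the 27 (22.2%), close to its 21.4% of all coding genes. Only 3 genes were occupied in both lists. None of 13 RNAPII subunit genes held a centre, which allows a share of up to 22.8%, and 1 of 15 Integrator genes did (INTS9). Immediate early and stress genes gave 6 of 42 (14.3%), with EGR1 far ahead of NR4A1, a nuclear receptor gene (5.45-fold, 19 tags), and ATF4 (4.23-fold, 10 tags). Heat shock and chaperone genes gave 2 of 25 (8.0%), close to the share of all coding genes, namely HSP90AB1 (5.74-fold, 14 tags) and HSPA9.

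Some genes of the cell of origin were met as well. WNT targets and intestinal regulators gave 8 of 29 (27.6%, 14.7 to 45.7), beside 7.71% of all coding genes. All 8 were occupied in the goat antibody list too, which held 18 of the 29 (62.1%), beside 21.4% of all coding genes. ZNRF3, a membrane ligase that lowers WNT receptor levels, had 12 tags (6.01-fold). LGR4, an R-spondin receptor, had 18 (5.18-fold) and AXIN2, a feedback inhibitor of the pathway, had 11 (5.0-fold). Of 22 colon epithelial genes, 5 were occupied (22.7%, 10.1 to 43.4). Among them were GPA33 (6.56-fold, 11 tags), the keratin gene KRT8 (5.09-fold, 26 tags) and the E-cadherin gene CDH1 (5.0-fold, 11 tags). CDX2 (4.82-fold, 14 tags) was another, and it is also counted among the intestinal regulators. Members of the same list without a centre included EPCAM, KRT18, KRT19, KRT20, VIL1, CDH17, LGALS4 and HNF4A. Blood markers gave 1 of 8 (12.5%), PTPRC (5.55-fold, 12 tags), and the 8 fibroblast and muscle, 6 neuron and glia and 4 liver markers gave none. Counts of 0 in lists this short allow shares of at least 32.4%. A list of actin, alpha-actinin and tubulin genes gave 6 of 15 (40.0%, 19.8 to 64.3), namely 5 tubulin genes, led by TUBA4A (6.11-fold, 14 tags), and the alpha-actinin gene ACTN4. The actin genes ACTB and ACTG1 held no centre. Glycolysis genes gave 4 of 18 (22.2%) and proteasome genes 5 of 39 (12.8%), with PSMB7 at 8.52-fold (18 tags) and PSMB5 at 6.06-fold (18 tags).

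Other families stood at or under the share for all coding genes. Zinc finger genes of chromosome 19 gave 18 of 246 (7.32%), and oxidative phosphorylation genes 3 of 83 (3.61%, 1.24 to 10.1). Among the zinc finger genes, ZNF540 and ZNF571 rest on a common peak, as do ZNF552 and ZNF586. No olfactory receptor gene of 414 held a centre, which allows up to 0.919%, and no keratin-associated protein gene of 94 did, which allows up to 3.93%.

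**Figure D4:**
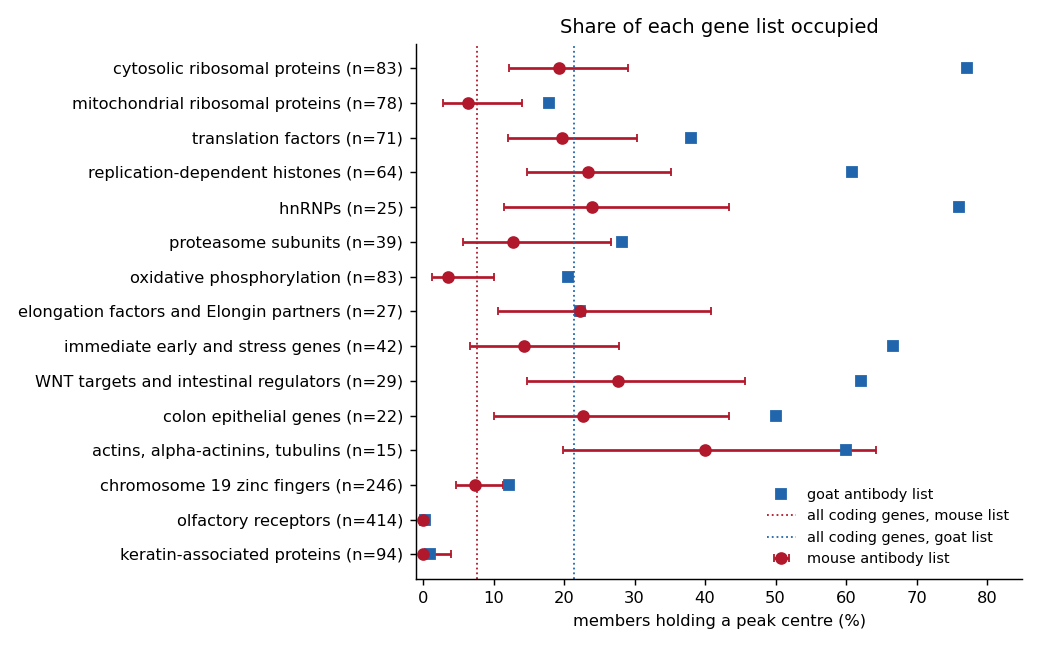
Share of genes in each of 15 lists (percent, horizontal axis) that hold a peak centre in promoter, gene body or TTS window, with red points for the mouse antibody list, their 95% Wilson intervals for counting error, and blue squares for the goat antibody list; dotted lines mark the shares of all protein-coding genes, 7.71% and 21.4%. In the mouse antibody list cytosolic ribosomal protein genes stand at 19.3% and replication-dependent histone genes at 23.4%, while olfactory receptor genes stand at 0 of 414.

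The loci that the study shows for Elongin A varied. NEAT1, the long noncoding RNA gene of paraspeckles, held 3 peaks of 4.13-fold to 6.26-fold with 11 to 15 tags. MALAT1, its neighbour, held 4 of 3.58-fold to 5.59-fold with 13 to 24 tags. All 7 overlapped goat antibody peaks. H1-1 held no peak in either CUT&RUN list. H2AC4 and SOX9, the latter a transcription factor gene of intestinal progenitors, held none in the mouse antibody list and 2 and 4 in the goat antibody list. RCC1, a chromatin-bound exchange factor gene, held 2 against 7. The region from PARP16 to IGDCC3 held 3 mouse antibody peaks (5.34-fold to 6.20-fold), all beside RNU5A-1 and RNU5B-1. The region from NPPB to KIAA2013 held 1, the RNU5E-1 peak.

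The list overlapped the goat antibody list in part. At least 1 bp was shared by 757 of 2338 mouse antibody peaks (32.4%, 30.5 to 34.3) and by 726 of 8720 goat antibody peaks (8.33%, 7.76 to 8.92). Where peaks overlapped, the summits lay a median of 65.0 bp apart, and 463 pairs (61.2%) were within 100 bp. Mouse antibody peaks without a partner lay a median of 48.5 kb from the nearest goat antibody peak. Only 44 mouse antibody peaks (1.9%) overlapped the ChIP-seq list, but these met 43 of its 186 peaks (23.1%, 17.6 to 29.7), and 38 of the 44 also overlapped a goat antibody peak.

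Overlap was higher at summits with more tags, but it did not climb with fold. It was 6.50% (4.64 to 9.04) for peaks with 5 to 9 tags, 23% with 10 to 14, 41.3% with 15 to 19 and 69.6% (64.4 to 74.2) with 20 to 29. Above that it was 65.7% (53.7 to 75.9), or 44 of 67 peaks. Sorted by fold into 5 groups of near equal size, overlap was 45.3%, 32.8%, 26.5%, 24.2% and 33.1% from lowest to highest. Shared peaks had a median of 18 tags over a background of 3.30, and peaks seen with the mouse antibody alone had 12 over 1.87. Their median folds were 4.19 and 4.46. The fold of a shared peak was only loosely related between the lists (Spearman's rho = 0.234 across 757 peaks, a description, since peaks of the same libraries are not independent samples). Depth, antibody and control library all differ between the lists and cannot be told apart as sources of the unshared peaks.

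**Figure D5:**
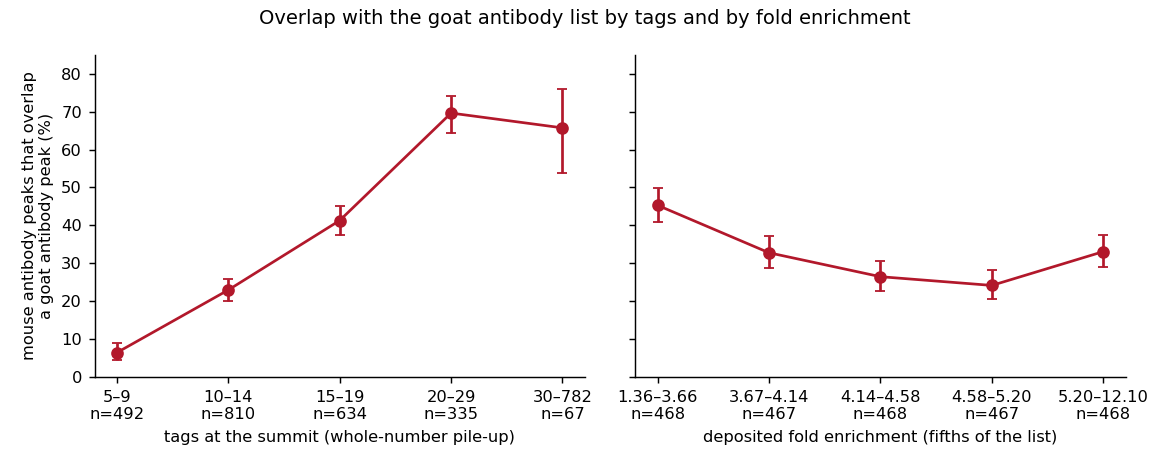
Share of mouse antibody peaks that overlap a goat antibody peak by at least 1 bp (percent, vertical axis), by tags at the mouse antibody summit (left) and by fold enrichment in 5 groups of near equal size (right), with 95% Wilson intervals for counting error and the number of peaks under each point. Overlap is 6.50% at 5 to 9 tags and 69.6% at 20 to 29, and it is 45.3% in the group of lowest fold and 33.1% in the highest.

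TTS peaks were shared most often. Of 156, 84 overlapped a goat antibody peak (53.8%, 46.0 to 61.5), or 23 points more than the other peaks (14.9 to 30.9). Promoter peaks overlapped in 36.4%, gene body peaks in 29.3% and intergenic peaks in 26.7%. The higher share of TTS peaks was also seen among peaks with 10 to 14 tags, where 35 of 67 (52.2%) overlapped, compared with 24.9% of promoter and 18.6% of gene body peaks. At 30 tags or more, all 10 TTS peaks overlapped, but only 4 of 18 intergenic peaks did.

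The strongest peaks of the other lists were only partly present. Of the 5 goat antibody peaks with the highest fold, the mouse antibody list had the one at RNVU1-18 (6.98-fold, 47 tags, against 21.2-fold). It had none at the promoters of SRSF1 (43.6-fold in the goat antibody list), ARMC6 and SUGP2 (25.7-fold), MCRS1 (25.6-fold) and NAPG (23.6-fold). Of the 5 strongest ChIP-seq peaks, 4 had a mouse antibody peak in the same gene or its windows, and the one in FAN1 had none. The 4 were those of RNU2-2P, RNU4-2, RNU1-1 and YARS1. At YARS1 the mouse antibody peak lay in the gene body, 246 bp upstream of the S100PBP start, and did not overlap a ChIP-seq peak.

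Promoter summits were richer in G and C than the rest. In the 100 bp on either side of the summit, G and C made up a median of 46.3%, against 39.8% in all genome windows of this length and 60.2% in windows at coding start sites. Promoter peaks stood at 54.2% and gene body peaks at 42.8%. The letters GGGCGG, on either strand, occurred in 11.6% of mouse antibody windows, 8.54% of goat antibody windows, 2.91% of genome windows and 36.0% of coding start windows. The 3.05-point difference between the antibody lists had an interval of 1.67 to 4.52. TGACTCA occurred in 5.0% (4.19 to 5.96), against 3.07% of genome windows and 2.54% of coding start windows. TATAAA was found in 13.9% and CCAAT in 23.1%, both below the genome windows (21.3% and 27.6%), and CACGTG in 2.05% (1.84% of genome windows). These motifs do not overlap each other in their letters, and a match is a description of the letters only. The 32 bases at the summit occurred more than once in the genome for 123 peaks (5.26%, 4.43 to 6.24), compared with 3.18% of goat antibody peaks. Intergenic peaks had the highest share, 9.92%, and promoter peaks the lowest, 2.48%.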

How the data were processed

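Elongin A CUT&RUN used 1 mouse antibody and 1 mouse IgG library of DLD1 cells. The clone of the mouse antibody is not given in the sources used here, and the methods name only goat IgG as the CUT&RUN control, so the pairing with mouse IgG comes from the labels. Reads were aligned by the authors with Bowtie2 to hg19 and peaks were called with MACS2 after removal of PCR duplicates, as the methods describe for CUT&RUN. The deposited list gives each peak a fold enrichment (a ratio), a −log10 p-value, a −log10 q-value, a score and a summit offset. Per the file values, the score is 10 times the −log10 q-value cut to a whole number, and it was not used beyond that check.

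The members and gene lists were chosen with earlier results of these data known. Peak centres were assigned to promoter, TTS, gene body and intergenic classes in that order with GENCODE 44 on GRCh37, and a gene was occupied when one of its windows held a centre. Tags at the summit and the expected background were solved from the fold and the −log10 p-value (all 2338 peaks within a tolerance of 0.0005). Shares carry Wilson 95% intervals, differences of shares Newcombe intervals and tags exact Poisson intervals. All of them cover counting error only, and no p-value is given because peaks are not replicates. Named were the 10 peaks highest by fold and by q-value, the genes with most centres, up to 4 leading members of a gene list, the loci the study shows, and the 5 strongest peaks of each other list. A few members of these sets are not named. The wide peaks, DDX5 among them, were named after their values were seen. Sequences came from the GRCh37 genome. Python 3.11.15, numpy 2.4.6, scipy 1.17.1, pandas 2.3.3, pysam 0.24.0 and matplotlib 3.10.9 were used, and the steps were tested on simulated data. Alternatives covered q-value, fold, window, annotation, overlap and tag minimums.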

Additional observations from a re-analysis of the deposited data

How the results depend on the processing

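Of 77 alternatives to 13 results, 46 stayed within the interval or 1.5-fold range of the value given, 30 moved and 1 reversed. The promoter share (27.6%) was 30.5% at a q-value under 0.001, 32.5% at a fold of at least 5, 22.4% with coding genes only and 36.8% with windows of 1000 bp on either side. The TTS share (6.67%) was 4.32% with coding genes and 4.06% with the wider promoter window. The gene body share (45.0%) was 43.0% at a fold of at least 5, 38.6% with coding genes and 38.5% with the wider window. The intergenic share (20.7%) was 17.8% at that fold and 34.6% with coding genes. Occupied genes (2238) numbered 784 by promoter windows alone, 1220 at a q-value under 0.001 and 691 at a fold of at least 5. The upstream share of summits (47.5%) was 37% within 200 bp and 52.6% for coding genes. Overlap with the goat antibody list (32.4%) was 30% when 50% of the smaller peak had to be shared and 37.8% within 1 kb. It was 34.3% and 40.1% for q-values under 0.01 and 0.001, 30% at a fold of at least 5 and 16.1% against as many goat antibody peaks. With at least 10 or 20 tags it was 39.3% and 68.9%, limits that were added after seeing the data. The promoter difference from the goat antibody list (2.67 points) was 5.55 at a q-value under 0.001, 7.11 at a fold of at least 5 and -0.342 against as many goat antibody peaks. The gene body difference (-4.48 points) was -1.2 against as many goat antibody peaks, a choice made after seeing the data for all classes but promoters. The ribosomal protein share (19.3%) was 7.23% at a fold of at least 5, where 2.33% of all coding genes were occupied. Summit sequences occurring more than once (5.26%) fell to 2.05% with 50 bases and 0.385% with 100. For these moves and the reversal the cause was not tested, beyond the smaller number of peaks or genes that stricter limits leave. No paired analysis was possible because the list comes from 1 antibody library and 1 IgG library.

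With a median of 14 tags at the summit, a place without a peak is one where none was detectable at this depth. A single antibody library and a single IgG library cannot tell reproducible occupancy from chance in that library. The IgG count at a site is not in the list, only the expected background.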

Other observations

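The following places were chosen after their values were seen. CDC27 and the stretches around its pseudogenes CDC27P1 and CDC27P2 held 15 mouse antibody peaks. Most of the peaks around the pseudogenes were intergenic and lay outside the windows of the pseudogenes themselves. CDC27 itself, on chromosome 17, held 3 (as it did in the goat antibody list), of 9.06-fold (25 tags), 7.34-fold (24 tags) and 4.39-fold (21 tags). Within 20 kb of CDC27P1, on chromosome 2, lay 8 peaks of 3.99-fold to 8.05-fold with 13 to 134 tags, and 4 lay near CDC27P2. Only 1 of the 15 overlapped a goat antibody peak, against 32.4% of the list. The summit sequence of 7 of the 15 occurs 2 or 3 times in the genome, against 5.26% of the list with more than 1 copy.

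A background of at least 20 expected tags was found at 7 peaks, with 65 to 782 tags at the summit and folds from 1.36 to 3.90. They included the HFM1 peak and an intergenic peak 1014 bp from the start of MIR3687 on chromosome 21 (280 tags over 132, 2.11-fold). The ChIP-seq list also had a peak at 5 of these 7, and the goat antibody list at 2.

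Peaks without a goat antibody partner included further named genes beside YIF1A and CDC27. CINP, a genome maintenance gene, had 14 tags (8.15-fold) 36 bp upstream of its TSS. A peak inside NHEJ1, a DNA end-joining gene, had 16 tags (7.43-fold) 120 bp downstream of a start site.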
